A study of Mus musculus with 19 samples.

Results

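The RNA of 7 myeloid transcription factors was followed across 19 RNA-seq libraries of blood stem and early progenitor cells, which had been sorted as lineage-negative, Sca-1-positive and c-Kit-positive from C57BL/6 mice. The genes are Cebpa, Cebpb, Cebpd, Cebpe, Spi1, Gfi1 and Irf8, 7 of 24210 named genes in the count table, and each was represented by the RefSeq accession with its highest mean count over the 19 libraries. Wild-type mice without treatment gave 4 libraries (WT). Mice that carry Idh2 R140Q, a mutation that makes isocitrate dehydrogenase 2 produce 2-hydroxyglutarate, together with Flt3-ITD, an internal duplication that activates the Flt3 receptor, gave 3 vehicle libraries (IDH2-FLT3 vehicle) and 4 libraries after AG-221, an inhibitor of mutant IDH2. Mice that lack the methylcytosine dioxygenase Tet2 and carry the Flt3 duplication (Tet2-/-;Flt3-IDT in the labels) gave 4 vehicle libraries (TET2-FLT3 vehicle) and 4 libraries after 5-Aza, a hypomethylating nucleoside. The series text states that the treated mice of both genotypes had acute myeloid leukemia, so the 4 leukemic groups all carry a Flt3 duplication and WT carries neither mutation and received no vehicle. Oral AG-221 was dosed at 100 mg/kg as a single agent or at 40 mg/kg in a combination study, and which dose each library received is not given in the sources used here, for 4 to 5 weeks. Injected 5-Aza was given in 4 cycles of 21 days, with 5 mg/kg daily on 5 days of a cycle; the series text also names decitabine, a different nucleoside, for this agent. The age of the mice, how the alleles were brought in and whether cells were transplanted are also not given in the sources used here.

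The 7 factors steer hematopoietic progenitors into the granulocyte and monocyte lineages. Spi1 encodes PU.1, an ETS-family protein that opens myeloid enhancers and is dosage sensitive in stem cells and leukemia. The C/EBP proteins are basic leucine zipper (bZIP) factors: C/EBP alpha drives the step from common myeloid progenitor to granulocyte-monocyte progenitor, C/EBP beta acts in emergency granulopoiesis and macrophages, C/EBP delta is an inducible member of the family, and C/EBP epsilon is needed for the secondary granules of late neutrophil precursors. Irf8 promotes monocyte and dendritic cell fates and restrains granulocyte output, while Gfi1 is a zinc-finger repressor that favors granulocytes over monocytes.

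What could be measured differed between the 7 genes, because the deposited counts are per RefSeq accession and several genes have more than 1. Cebpd, Cebpe and Spi1 each have 1 accession, with lengths of 2260, 1238 and 1333 bases in the deposited table as its FPKM imply. All 5 accessions of Cebpa and all 3 of Cebpb stood at 0 counts in all 19 libraries. The 5 Cebpa accessions correspond to 1 GENCODE transcript of 2626 bases and the 3 Cebpb accessions to 1 of 1504 bases, so no base of either gene belongs to a single accession. Of 5140 genes with several accessions, 1392 (27.1%) had no count in any library, against 18.7% of 19070 genes with a single accession. Whether reads shared by accessions were counted is not given in the sources used here, so the value of 0 is not read as absence of Cebpa and Cebpb RNA. Per accession, 3 counts in a group, the most that 0 allows, would be 0.0527 to 0.0666 CPM (counts scaled to a common library size), counting error only. Runx1, Myc and Ikzf1, other regulators of blood stem cells, were listed at 0 in every library too, as was Ly6a, which encodes the Sca-1 antigen used for the sort.

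For Gfi1 and Irf8, which have 2 accessions each, counts were small, and whether reads from the bases that the accessions share entered them is not given in the sources used here. The Irf8 accession used, NM_001301811, starts 2281 bases downstream of the other, NM_008320, and averaged 13.9 counts per library. In the matching GENCODE transcript 588 of 2270 bases belong to it alone. Its FPKM imply a length of 3381 bases in the deposited table, so that transcript does not describe all that was counted. The Gfi1 accession used, NM_010278, starts 1462 bases downstream of NM_001267621, has 466 of 2860 GENCODE bases to itself, and averaged 6.26 counts. The 250 bases before each of these starts are shown because the Irf8 and Gfi1 values belong to 1 accession each and not to the whole gene (RefSeq starts, build GRCm38.p6, 5′ to 3′ on the gene's own strand, with motif matches in capitals).
Irf8, NM_008320 start, chr8:120736108-120736357, plus strand: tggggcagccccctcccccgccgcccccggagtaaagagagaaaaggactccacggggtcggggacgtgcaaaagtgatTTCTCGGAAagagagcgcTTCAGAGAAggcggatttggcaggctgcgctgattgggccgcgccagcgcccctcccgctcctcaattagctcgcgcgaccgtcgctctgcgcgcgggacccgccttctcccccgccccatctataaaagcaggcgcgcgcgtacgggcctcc
Irf8, NM_001301811 start, chr8:120738389-120738638, plus strand: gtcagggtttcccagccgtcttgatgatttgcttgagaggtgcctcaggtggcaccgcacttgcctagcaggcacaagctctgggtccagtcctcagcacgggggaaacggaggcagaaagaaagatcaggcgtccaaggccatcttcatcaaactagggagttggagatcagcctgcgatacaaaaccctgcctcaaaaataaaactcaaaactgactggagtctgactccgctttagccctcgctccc
Gfi1, NM_001267621 start, chr5:107725806-107726055, minus strand: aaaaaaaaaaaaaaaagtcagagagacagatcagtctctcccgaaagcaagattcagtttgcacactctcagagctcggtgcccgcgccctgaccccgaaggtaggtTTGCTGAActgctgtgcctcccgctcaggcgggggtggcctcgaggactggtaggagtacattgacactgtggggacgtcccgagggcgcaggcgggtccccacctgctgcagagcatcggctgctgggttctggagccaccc
Gfi1, NM_010278 start, chr5:107724344-107724593, minus strand: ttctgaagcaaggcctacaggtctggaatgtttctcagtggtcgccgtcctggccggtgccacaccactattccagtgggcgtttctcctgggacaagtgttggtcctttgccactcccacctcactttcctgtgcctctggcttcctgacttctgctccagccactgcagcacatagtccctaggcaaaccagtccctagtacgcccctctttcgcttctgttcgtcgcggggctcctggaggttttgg
Both strands were searched for TTGCNNAA (bound by C/EBP proteins), GAGGAAGT (PU.1), AAATC followed after 3 bases by GC (GFI1), GAAA followed after 2 bases by GAAA (interferon regulatory factors) and TTCNNNGAA (STAT proteins, which Flt3-ITD signaling activates). The upstream Irf8 window held 2 STAT matches, TTCTCGGAA and TTCAGAGAA, which do not overlap, and the STAT motif was present in 7.02% of 32841 windows of the same length. The upstream Gfi1 window held the C/EBP match TTGCTGAA, a motif present in 9.57% of windows. The windows of the 2 accessions used here, and those of Cebpa and Cebpb, held none of the 5 motifs, of which the other 3 occurred in 2.41% to 2.98% of windows. These letters describe the windows and give no evidence on binding.

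Libraries held 9635795 to 20383132 assigned counts. The column headers pair a library V3-2 with V3 among the IDH2-FLT3 vehicle libraries and V5-2 with V5 among the TET2-FLT3 vehicle libraries; what the suffix stands for, and whether each pair is from 1 mouse, is not given in the sources used here. If it is, IDH2-FLT3 vehicle stands for 2 mice and TET2-FLT3 vehicle for 3. The counts of neither pair agree within sampling noise. V3-2 and V5-2 were also the deepest libraries, with 20140641 and 20383132 counts. Across the 11830 accessions tested, the log2 difference V3-2 minus V3 had a Spearman correlation of 0.872 with the difference V5-2 minus V5, although these mice differ in genotype, and both differences rose with the GC content of the transcript. Among 10 equal classes of GC content, the median difference in the highest was 0.88 for V3-2 and 0.81 for V5-2, and in the lowest it was -0.45 and -0.56. Spi1, with 58.9% GC, was 11.9-fold higher in V3-2 than in V3 and 10.4-fold higher in V5-2 than in V5, above 99.7% and 99.8% of tested accessions. Cebpd was 4.84-fold and 2.57-fold higher, Cebpe differed by 0.971-fold and 1.25-fold, and the Irf8 accession by 0.501-fold and 0.538-fold. Results for the factors that rest on these libraries are given with and without them. Whether the libraries differ in preparation or in their cells was not tested.

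**Figure D1:**
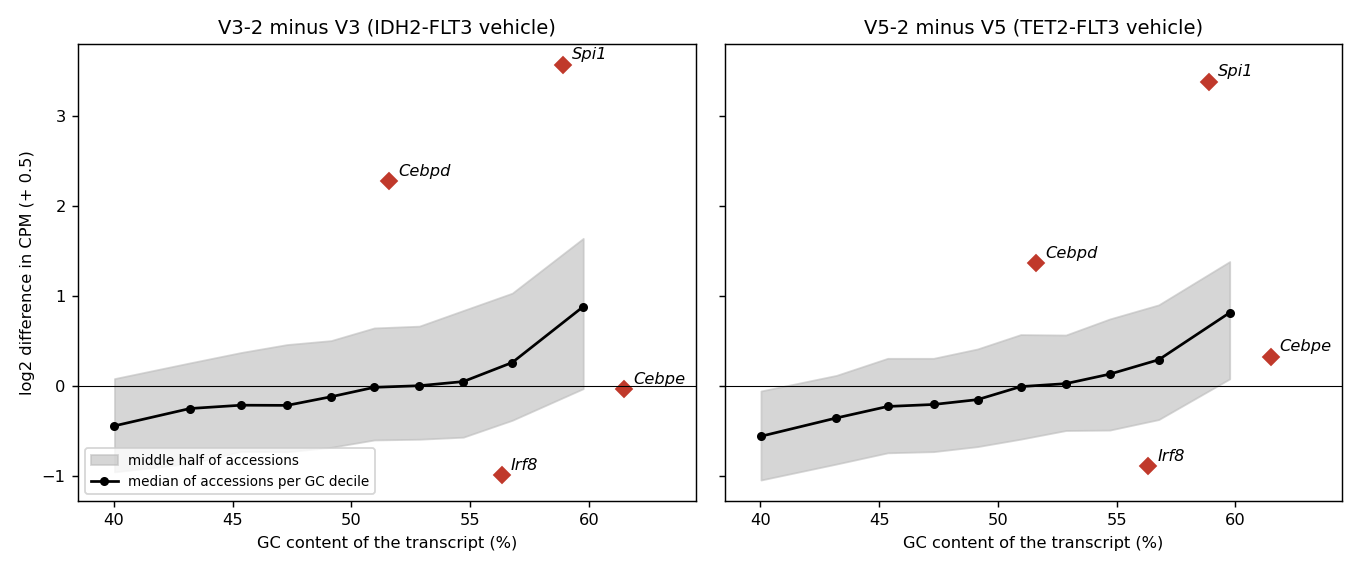
Log2 difference in CPM (with 0.5 added) between V3-2 and V3 (left) and between V5-2 and V5 (right) against the GC content of the transcript in percent; the line joins medians of 10 equal classes of accessions, the band is the interquartile range of each class, and diamonds mark the tested factors. Spi1 lies far above the band in both panels, 11.9-fold and 10.4-fold higher, while Cebpe, with 61.5% GC, lies near 0.

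The cells were checked against markers of stem and progenitor cells, among them those of the sort, and of other lineages. Of 8 stem and progenitor markers (Kit, Ly6a, Cd34, Flt3, Slamf1, Procr, Hlf and Mecom) 7 had counts. Their summed level was 1062 to 1754 CPM in WT, 97.9 to 384 with IDH2-FLT3 vehicle and 538 to 895 after AG-221. It was 459 to 880 with TET2-FLT3 vehicle and 706 to 906 after 5-Aza. Hlf alone averaged 862 CPM in WT, 32.2 with IDH2-FLT3 vehicle and 305 after AG-221. Its mean was 191 with TET2-FLT3 vehicle and 426 after 5-Aza. The sums are therefore weighted towards Hlf and do not show how the other markers differed. Monocyte and macrophage markers (8 of 8 with counts) summed to 162 to 669 CPM in WT, while IDH2-FLT3 vehicle libraries had 1365 to 6401, AG-221 libraries 494 to 1238, TET2-FLT3 vehicle libraries 666 to 1392 and 5-Aza libraries 196 to 418. Mature neutrophil markers (9 of 10 in the table) spanned 1542 to 3910 CPM in WT; with IDH2-FLT3 vehicle they spanned 823 to 23850, after AG-221 1319 to 22150, with TET2-FLT3 vehicle 185 to 2178 and after 5-Aza 475 to 1607. In bulk RNA of this kind, more cells of a lineage and more RNA per cell cannot be told apart, and this applies to every factor described here.

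On the FPKM scale, which corrects for transcript length and library size and so lets levels of different genes be compared, Spi1 and Cebpe stood above Cebpd in WT cells; these are the 3 factors with a single accession, and the others are not ranked. Mean WT levels were 22.5 ± 4.46 FPKM for Spi1, 19.7 ± 13.0 for Cebpe and 2.71 ± 0.611 for Cebpd (SD, n = 4). The ratio of Cebpe to Spi1 FPKM was 0.835, 1.76, 0.399 and 0.619 in the 4 WT libraries, so neither gene led in all of them. In TET2-FLT3 vehicle libraries the ratio was 0.244 (V19), 0.483 (V1), 0.0379 (V5-2) and 0.318 (V5), and after 5-Aza it ran from 0.168 to 0.590, so Spi1 exceeded Cebpe in all 8. The highest ratio, 5.88, was in the IDH2-FLT3 vehicle library V3. Cebpe exceeded Cebpd in FPKM in all 19 libraries, by 2.04-fold to 27.0-fold.

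Group differences were tested with edgeR's quasi-likelihood test on counts, fitted to all 19 libraries and adjusted over all 11830 accessions by the Benjamini-Hochberg method, and a gene was called at an adjusted p under 0.05. Only 4 of the 7 factors passed the count filter (Spi1, Cebpe, Cebpd and the Irf8 accession); Gfi1 fell below it and Cebpa and Cebpb had no counts. In IDH2-FLT3 vehicle against WT, 3 of these 4 were called higher, where 10.1% of all accessions were called higher and 20.5% in either direction. In TET2-FLT3 vehicle against WT, 0 of 4 were called, against a background of 10.1%, and 1 had an unadjusted p under 0.05. There DESeq2 called 1, against 14.7% of the accessions to which it gave an adjusted p, and limma-voom 0, against 7.27% of accessions. AG-221 against IDH2-FLT3 vehicle gave 1 of 4 called lower, where 5.29% of accessions were called lower and 9.68% in either direction. In 5-Aza against TET2-FLT3 vehicle, 0 of 4 were called, against 1.88% of accessions, and 2 had an unadjusted p under 0.05. DESeq2 and limma-voom each called 1, against backgrounds of 3.36% and 1.94%. Against WT, 0 of 4 were called after AG-221 (background 2.71%, with 1 unadjusted p under 0.05) and 0 of 4 after 5-Aza (background 1.72%, with 0). DESeq2 and limma-voom also called 0 in both, with backgrounds of 4.3% and 18% after AG-221 and 4.77% and 23.3% after 5-Aza. IDH2-FLT3 vehicle against TET2-FLT3 vehicle gave 1 of 4 called higher, where 1.93% of accessions were called higher and 4.28% in either direction. The difference between the drug responses (AG-221 against its vehicle, less 5-Aza against its vehicle) was called for 0 of 4, against 0.228% of accessions. For this difference 1 had an unadjusted p under 0.05, and DESeq2 and limma-voom called 0, against backgrounds of 2.96% and 0.778%. The comparisons with WT share the WT libraries, and each drug comparison shares its vehicle libraries with a comparison against WT. Nothing in the labels says that the libraries of a group came from separate mice, so these p-values measure the spread between libraries, which may be technical.

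**Figure D2:**
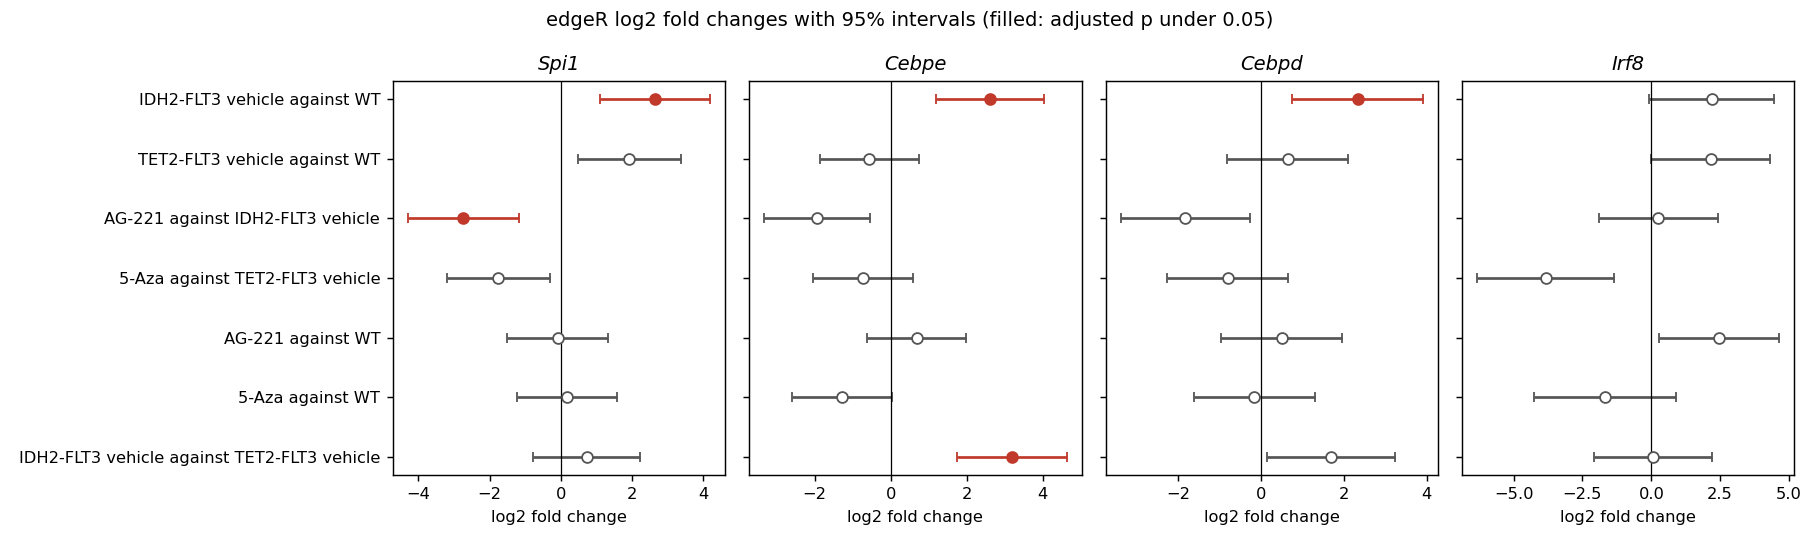
edgeR log2 fold changes (horizontal axis) with 95% confidence intervals for the 4 tested factors in 7 comparisons between groups; filled red points passed an adjusted p of 0.05 and open points did not. The 5 filled points are Spi1, Cebpe and Cebpd in IDH2-FLT3 vehicle against WT, Spi1 in AG-221 against its vehicle, and Cebpe between the 2 vehicle groups.

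Spi1 gave the highest single values of the set, and they came from 2 libraries. Its CPM was 25.9, 27.0, 34.4 and 19.5 in WT, and 432 (V3-2), 35.8 (V3) and 31.4 (V9) in IDH2-FLT3 vehicle. After AG-221 it was 22.0, 26.6, 38.2 and 13.3. TET2-FLT3 vehicle libraries had 48.7 (V19), 73.5 (V1), 258 (V5-2) and 24.2 (V5), and 5-Aza libraries had 33.1, 35.0, 21.3 and 30.6. The groups overlapped in every pair, V3-2 and V5-2 stood above all other libraries, V9 lay within the WT range and V3 just above it. Group means fell in the order IDH2-FLT3 vehicle (166 ± 230.0 CPM, n = 3), TET2-FLT3 vehicle (101 ± 106, n = 4), 5-Aza (30.0 ± 6.06), WT (26.7 ± 6.09) and AG-221 (25.0 ± 10.3, SD, n = 4 each). The 2 vehicle groups did not differ beyond their spread (log2 difference 0.72 ± 0.72 SE, edgeR adjusted p = 0.573), nor did 5-Aza and WT (0.17 ± 0.68, adjusted p = 0.925) or AG-221 and WT (-0.10 ± 0.68, adjusted p = 0.979). Spi1 was called higher in IDH2-FLT3 vehicle than in WT (log2 fold change 2.64 ± 0.74 SE, edgeR adjusted p = 0.0170). It was called lower after AG-221 than with vehicle (-2.74 ± 0.75, adjusted p = 0.0292). Without V3-2 these values were 0.34 (adjusted p = 0.744) and -0.43 (adjusted p = 0.704), so both calls rested on that library. With all libraries, limma-voom made neither call (0.79, adjusted p = 0.204, and -1.04, adjusted p = 0.156). Nor did limma on log2 FPKM plus 1 or plus 0.1. In TET2-FLT3 vehicle against WT the log2 fold change was 1.92 ± 0.70 (adjusted p = 0.0820), and 0.93 without V5-2 (adjusted p = 0.341). In 5-Aza against vehicle it was -1.75 ± 0.69 (adjusted p = 0.276), and -0.75 without V5-2 (adjusted p = 0.664). In the second comparison, 3 of the 4 vehicle libraries lay above every 5-Aza library.

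**Figure D3:**
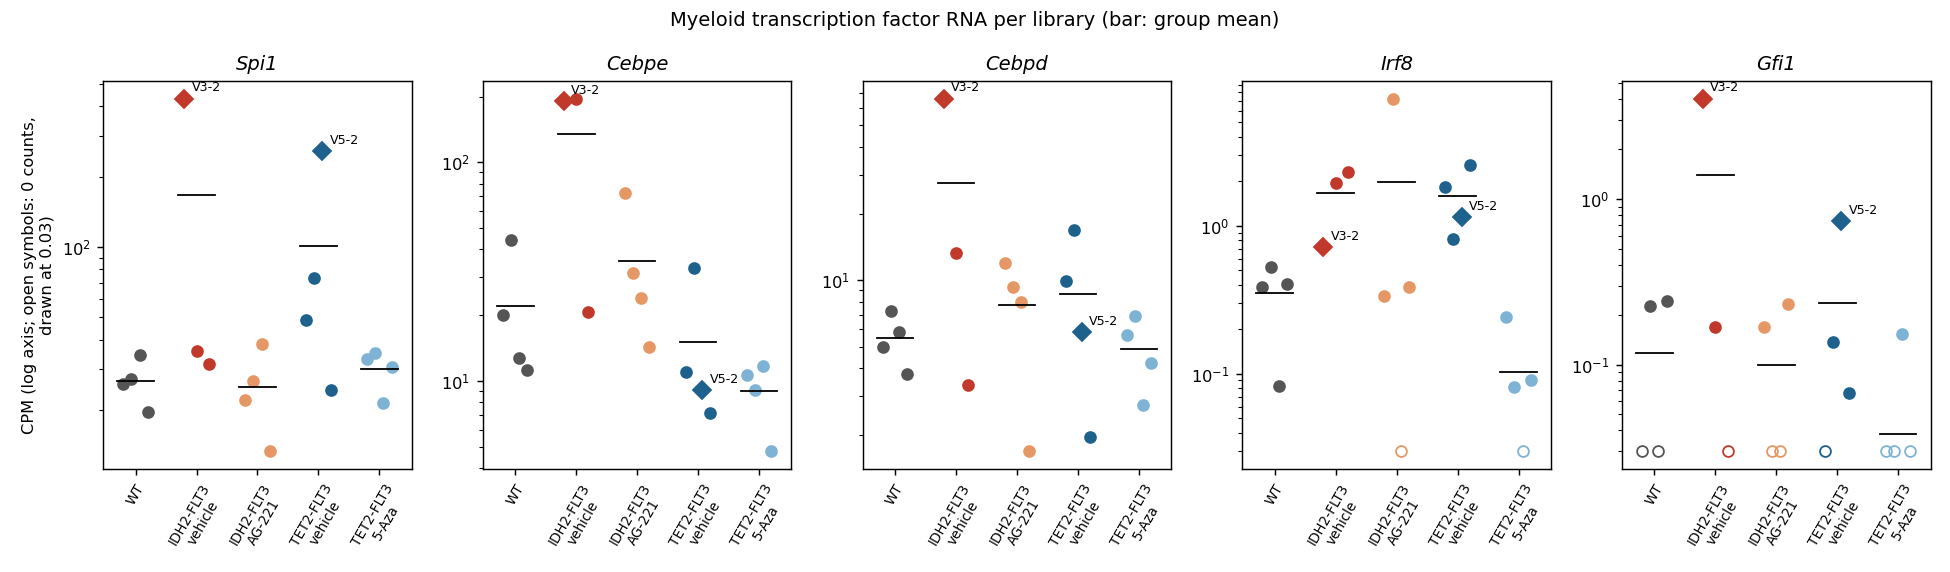
CPM of 5 factors in each library on a logarithmic axis, by group; each circle is a library, diamonds mark V3-2 and V5-2, bars are group means, and open symbols drawn at 0.03 are libraries with 0 counts. Spi1 and Gfi1 are highest in V3-2 and next highest in V5-2, Cebpe is high in both V3-2 and V3, and the Irf8 accession is low in all 5-Aza libraries. Cebpa and Cebpb, at 0 in all libraries, are not drawn.

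Cebpe was high in 2 of the 3 IDH2-FLT3 vehicle libraries. Its CPM was 20.1, 44.2, 12.7 and 11.2 in WT, and 190.1 (V3-2), 196 (V3) and 20.8 (V9) in IDH2-FLT3 vehicle. After AG-221 it was 72.2 (AG12), 31.1 (AG13), 24.1 (AG1) and 14.3 (AG8). TET2-FLT3 vehicle libraries had 11.0, 33.0, 9.07 and 7.16, and 5-Aza libraries had 10.6, 9.06, 11.7 and 4.78. The library V9 lay within the WT range, so these groups overlapped, and V3-2 and V3 gave nearly the same level. Cebpe was called higher in IDH2-FLT3 vehicle than in WT (log2 fold change 2.62 ± 0.68, edgeR adjusted p = 0.0107), a call that held without V3-2 and V5-2 (2.32, adjusted p = 0.0412) and was lost without V3 (2.24, adjusted p = 0.0535). With V3 and V3-2 summed to 1 library, and V5 and V5-2 likewise, it was 2.25 (adjusted p = 0.0448). It was also called higher than in TET2-FLT3 vehicle (3.18 ± 0.69, adjusted p = 0.0115). That call was lost without V3-2 (2.86, adjusted p = 0.0543), without V3 (2.81, adjusted p = 0.0756) and without both V3-2 and V5-2 (2.68, adjusted p = 0.0858). After AG-221 the log2 difference from vehicle was -1.94 ± 0.67 (adjusted p = 0.0674); without V3-2 it was -1.61 (adjusted p = 0.241), without V9 it was -2.44 (adjusted p = 0.00985) and without AG12 it was -2.55 (adjusted p = 0.0458). In order of group means Cebpe stood at 136 ± 99.5 CPM in IDH2-FLT3 vehicle, 35.4 ± 25.5 after AG-221, 22.0 ± 15.3 in WT, 15.1 ± 12.1 in TET2-FLT3 vehicle and 9.03 ± 3.03 after 5-Aza. AG-221 and WT (0.68 ± 0.62, adjusted p = 0.728), WT and TET2-FLT3 vehicle (adjusted p = 0.593), and TET2-FLT3 vehicle and 5-Aza (adjusted p = 0.695) did not differ beyond their spread.

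Mature neutrophil markers and Cebpe were both high in V3-2, V3 and AG12 and both lower in V9 than in V3, but did not rank the libraries alike. The marker sum was 10140 CPM in V3-2, 23850 in V3 and 823 in V9, and 22150 in AG12, 12960 in AG13, 1319 in AG1 and 4121 in AG8. Mast cell and basophil markers (5 of 5 with counts) summed to 798 CPM in V3-2, 2074 in V3 and 199 in V9, against 216 to 366 in WT, 299 to 467 after AG-221 and 223 to 334 after 5-Aza, and TET2-FLT3 vehicle libraries had 71.7 to 397. The part of these markers in the Cebpe differences was not tested, and 7 of the 10 neutrophil markers are also in the granulocyte list described next.

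The granulocyte genes that C/EBP factors and Gfi1 act on were described from a list of 18, of which 17 were tested. In IDH2-FLT3 vehicle against WT, 12 of 17 rose and 0 fell, with a median log2 fold change of 2.58 against 0.03 over all tested accessions, of which 10.1% were called higher. The smallest p-values were those of Ctsg (cathepsin G, log2 fold change 2.67 ± 0.45), Mpo (myeloperoxidase, 3.95 ± 0.67), Prtn3 (proteinase 3, 2.11 ± 0.40) and Cd177 (a neutrophil surface protein, 4.29 ± 0.89), with edgeR adjusted p from 5.22e-04 to 0.00250. Mpo and Prtn3 are stored in primary granules of promyelocytes, and in all 3 vehicle libraries Mpo lay above every WT library (11050 to 62760 against 557 to 4907 CPM). Secondary granule products behaved differently between libraries: Ltf, which encodes lactoferrin and depends on C/EBP epsilon, was 1841 CPM in V3-2, 3141 in V3 and 50.1 in V9, while WT libraries had 50.8 to 175. Without V3-2 and V5-2, 11 of 17 were called higher, where 15.2% of accessions were called in either direction. After AG-221, 3 of 17 fell relative to vehicle (Mpo by 3.30, Prtn3 by 1.76 and Ctsg by 1.44 on the log2 scale) and 0 rose. There 5.29% of accessions were called lower, and 1 of 17 was called without V3-2 and V5-2 (2.2% of accessions). In AG-221 against WT the median log2 fold change of the list was 1.56, against 0.01 over all tested accessions. By edgeR 1 of 17 was called there (2.71% of accessions), with 10 at an unadjusted p under 0.05. DESeq2 called 2 higher (background 4.3%) and limma-voom 13 (18%). Against TET2-FLT3 vehicle, 13 of 17 were called higher in IDH2-FLT3 vehicle (median 3.31), where 1.93% of accessions were called higher. DESeq2 called 15 of 17 (background 8.81%) and limma-voom only 1 (1.62%). Without V3-2 and V5-2, edgeR called 4 (1.55% of accessions). Between TET2-FLT3 vehicle and WT only Ctsg was called (1.60 ± 0.41, edgeR adjusted p = 0.0196), where 10.1% of accessions were called. In 5-Aza against vehicle 0 of 17 were called by edgeR (background 1.88%), DESeq2 (3.36%) or limma-voom (1.94%), with 0 at an unadjusted p under 0.05.

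**Figure D4:**
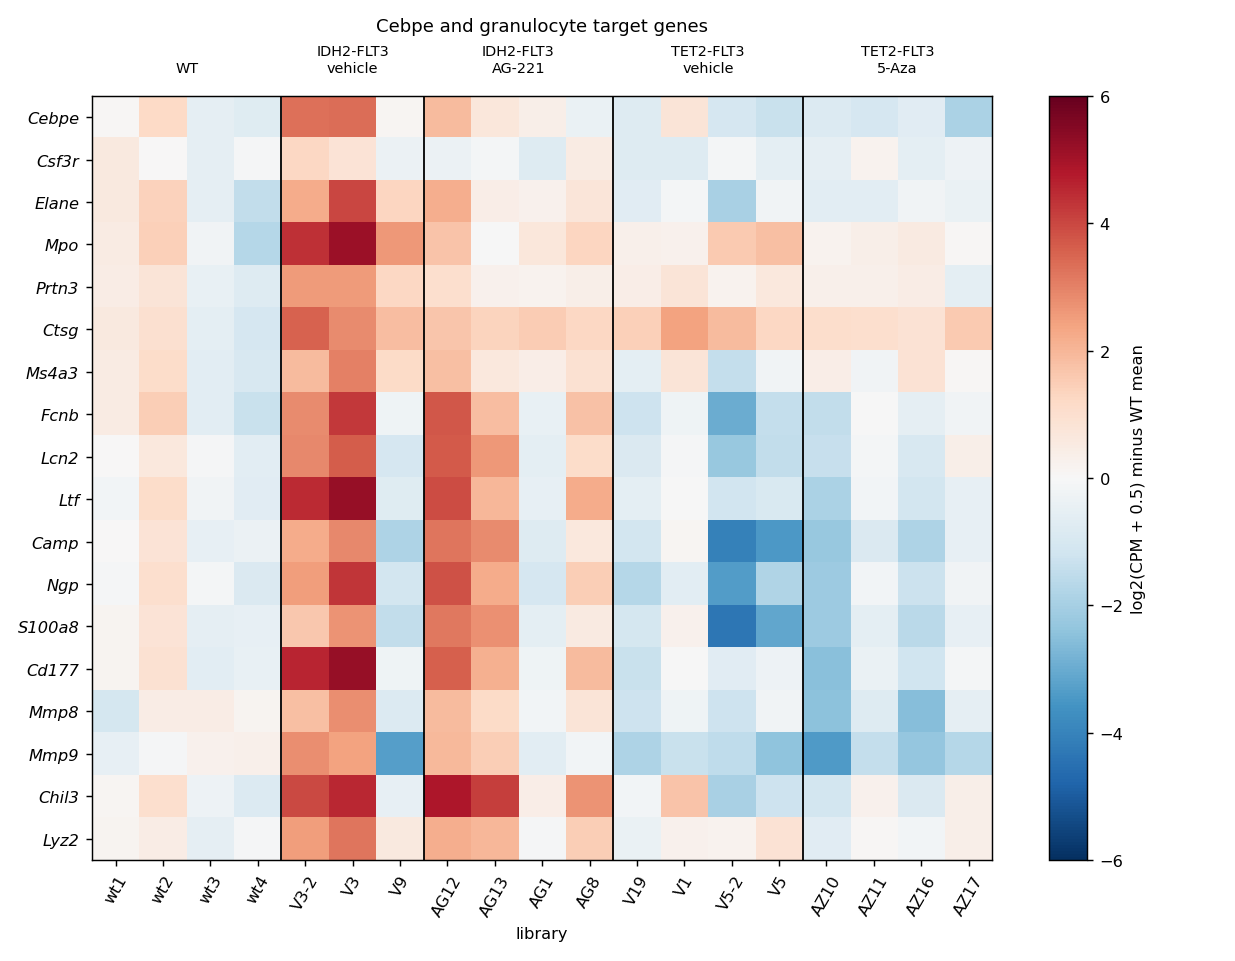
Heat map of Cebpe (top row) and the 17 tested granulocyte genes in the 19 libraries; color gives log2(CPM + 0.5) minus the WT mean, and vertical lines part the groups. V3-2 and V3 are red in every row, V9 is red for Mpo, Prtn3 and Ctsg and blue for Ltf, Camp and Mmp9, and AG12 is red for all genes but Csf3r.

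Cebpd, the less abundant bZIP member, was highest in V3-2. Its CPM was 4.98, 7.25, 5.86 and 3.79 in WT, and 66.0 (V3-2), 13.2 (V3) and 3.37 (V9) in IDH2-FLT3 vehicle. After AG-221 it was 12.0, 9.28, 7.95 and 1.69. TET2-FLT3 vehicle libraries had 9.89, 16.9, 5.82 and 1.96, and 5-Aza libraries had 5.66, 6.87, 2.73 and 4.24. Every group overlapped with WT, and V9, AG8, V5 and AZ16 lay below the lowest WT library. Cebpd was called higher in IDH2-FLT3 vehicle than in WT (log2 fold change 2.33 ± 0.76, edgeR adjusted p = 0.0341). Without V3-2 the value was 0.60 (adjusted p = 0.613). Leaving out any 1 of the 4 WT libraries also ended the call (adjusted p from 0.0503 to 0.0887). So did summing V3 with V3-2 and V5 with V5-2 (2.17, adjusted p = 0.0538). The call was also absent with limma-voom (adjusted p = 0.226) and with limma on log2 FPKM plus 1 or plus 0.1 (adjusted p = 0.230 and 0.315). After AG-221 the difference from vehicle was -1.84 ± 0.75 (adjusted p = 0.109), -0.11 without V3-2 (adjusted p = 0.950) and -2.35 without V9 (adjusted p = 0.0238). Group means were 27.5 ± 33.7 CPM in IDH2-FLT3 vehicle, 8.64 ± 6.39 in TET2-FLT3 vehicle, 7.72 ± 4.35 after AG-221, 5.47 ± 1.46 in WT and 4.88 ± 1.79 after 5-Aza. No other pair of groups passed the test for Cebpd.

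The Irf8 accession separated the TET2-FLT3 vehicle libraries from those after 5-Aza without overlap, on few counts. Its counts in WT were 5, 7, 1 and 5, or 0.383, 0.529, 0.0826 and 0.403 CPM. IDH2-FLT3 vehicle libraries had 0.721 (V3-2), 1.94 (V3) and 2.33 (V9) CPM. After AG-221 the values were 0.337 (AG12), 7.23 (AG13), 0 (AG1) and 0.385 (AG8), so 1 library had 74 counts and the other 3 had 0 to 5. TET2-FLT3 vehicle libraries had 1.82, 0.818, 1.15 and 2.57 CPM (19, 6, 28 and 38 counts), and 5-Aza libraries had 0.243, 0.0808, 0 and 0.0902 CPM (3, 1, 0 and 1 counts). Both vehicle groups lay above every WT library; such separation upward was seen for 17.1% of accessions in IDH2-FLT3 vehicle against WT and for 6.98% in TET2-FLT3 vehicle against WT. All 5-Aza libraries lay below all their vehicle libraries, as did 4.26% of accessions. None of these differences passed the edgeR test. The log2 fold change was 2.20 ± 1.09 in IDH2-FLT3 vehicle (edgeR adjusted p = 0.156), 2.16 ± 1.04 in TET2-FLT3 vehicle (adjusted p = 0.187) and -3.84 ± 1.20 in 5-Aza against vehicle (adjusted p = 0.125). DESeq2 (adjusted p = 0.0256) and limma-voom (adjusted p = 0.0288) called the last, and limma-voom also called the first (2.36, adjusted p = 0.0250). By edgeR the 5-Aza value ran from -4.67 to -3.44 when any 1 of the 8 libraries was left out, with no call in any of these fits. It was -3.99 without V3-2 and V5-2. After AG-221 the difference from vehicle was 0.26 ± 1.03 (adjusted p = 0.888), and it was -2.68 (adjusted p = 0.0783) without AG13. The difference between the responses to AG-221 and to 5-Aza was 4.10 ± 1.59 on the log2 scale (adjusted p = 0.239), and 1.16 without AG13. In order of group means the accession stood at 1.99 ± 3.50 CPM after AG-221, 1.66 ± 0.837 in IDH2-FLT3 vehicle, 1.59 ± 0.774 in TET2-FLT3 vehicle, 0.349 ± 0.189 in WT and 0.103 ± 0.101 after 5-Aza.

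Monocyte and dendritic cell genes, the lineage genes on which PU.1 and IRF8 act, were described from a list of 21, with 18 tested. In IDH2-FLT3 vehicle against WT, 16 of 18 rose and 0 fell (median log2 fold change 2.59, against 0.03 over all accessions, of which 10.1% were called higher), and 12 were called without V3-2 and V5-2 (15.2% of accessions). The smallest p-values belonged to Cx3cr1 (the fractalkine receptor, 3.48 ± 0.43), Csf1r (the M-CSF receptor and a PU.1 target, 4.10 ± 0.62), Csf2rb (the shared chain of the GM-CSF and interleukin receptors, 1.66 ± 0.28) and Ccr2 (the receptor for monocyte egress, 3.31 ± 0.58), with edgeR adjusted p from 4.87e-05 to 7.56e-04. Csf1r was 511 CPM in V3-2, 491 in V3 and 60.9 in V9, while WT libraries had 13.1 to 34.2. In TET2-FLT3 vehicle against WT, 6 of 18 rose and 0 fell (4.43% of accessions were called higher), led by Ccr2 (2.86 ± 0.55), Cx3cr1 (1.93 ± 0.40), Csf2rb (1.24 ± 0.26) and Xcr1, the receptor of type 1 conventional dendritic cells (3.75 ± 0.84), with adjusted p from 0.00305 to 0.00894. Without V3-2 and V5-2, 6 of 18 were called as well (12.4% of accessions). After AG-221, 3 of 18 fell relative to vehicle: Cx3cr1 (-3.08 ± 0.43), Csf1r (-4.27 ± 0.63) and Cd14 (the endotoxin co-receptor, -3.69 ± 0.80), where 5.29% of accessions were called lower, and 3 were called without V3-2 and V5-2 (2.2%). After 5-Aza 5 of 18 fell relative to vehicle, where 1.45% of accessions were called lower. They were Xcr1 (-6.32 ± 0.97), Batf3, a bZIP partner of IRF8 in dendritic cells (-5.06 ± 0.98), Ccr2 (-2.81 ± 0.55), Cd74, the invariant chain of MHC class II (-5.09 ± 1.13), and Cst3, a cystatin abundant in dendritic cells (-2.67 ± 0.67), with adjusted p from 0.00229 to 0.0407. Xcr1 was 103 to 263 CPM in the 4 vehicle libraries and 1.05 to 3.57 after 5-Aza, and Batf3 was 27.1 to 38.2 against 0.303 to 1.62.

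The library AG13, which held the highest Irf8 value, also held the highest Xcr1 (237 CPM, against 5.44 to 24.3 in the other 3 AG-221 libraries) and Batf3 (44.0 against 2.52 to 3.16) of its group. Dendritic markers, 8 listed with Clec9a at 0 everywhere, summed to 1113 CPM in AG13 and to 486 to 548 in the other 3. They summed to 790 to 1185 CPM in TET2-FLT3 vehicle, 387 to 745 after 5-Aza and 595 to 751 in WT. In IDH2-FLT3 vehicle they summed to 348 in V3-2 and 362 in V3, below every WT library although the Irf8 accession was above, and to 824 in V9. Xcr1 is among the dendritic markers, so these sums include its values and do not stand apart from them. The part of these markers in the Irf8 differences was not tested.

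**Figure D5:**
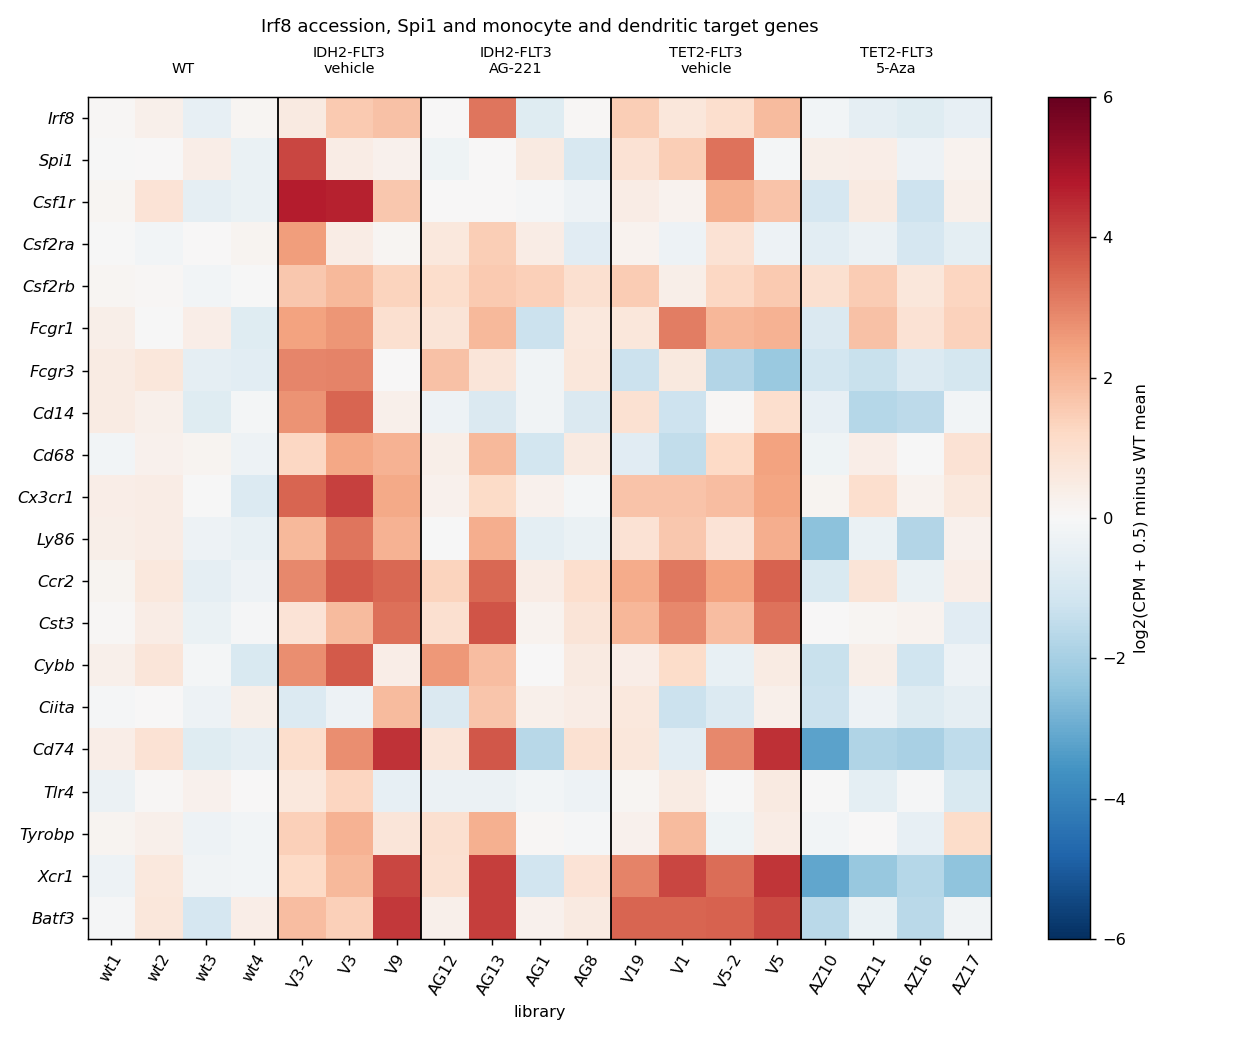
Heat map of the Irf8 accession, Spi1 and the 18 tested monocyte and dendritic genes in the 19 libraries; color gives log2(CPM + 0.5) minus the WT mean, and vertical lines part the groups. Xcr1, Batf3, Ccr2 and Cst3 lie above the WT mean in all IDH2-FLT3 vehicle libraries, AG13 and all 4 TET2-FLT3 vehicle libraries. The Irf8 row lies above it there too, and Csf1r is darkest in V3-2 and V3.

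Gfi1 was near its detection limit in all but 2 libraries. Its accession had 84 counts in V3-2 and 18 in V5-2, which is 4.04 and 0.738 CPM, and 0 to 3 counts in each of the other 17. It had 0 counts in 9 of the 19 libraries. The gene did not pass the count filter with all libraries; in a fit without the filter its log2 fold change was 3.52 ± 1.31 in IDH2-FLT3 vehicle against WT (edgeR adjusted p = 0.0764) and -3.63 ± 1.34 after AG-221 (adjusted p = 0.0952). Both values rest on V3-2. Without V9 it passed the filter and both were called (4.06, adjusted p = 0.0383, and -4.19, adjusted p = 0.0420). Without V3 it also passed, and neither was called (3.995, adjusted p = 0.0852, and -4.11, adjusted p = 0.121). In both fits Gfi1 passed on V3-2 and V5-2, the libraries where it is high, so these calls are no independent support. Of 11 Gfi1 partners and related repressors, among them the demethylase gene Kdm1a and the deacetylase genes Hdac1 and Hdac2, 8 were tested, and edgeR called 0 in any of the 8 comparisons, with 0 to 2 unadjusted p under 0.05 in each. In TET2-FLT3 vehicle against WT, 1 was called higher by DESeq2 (background 14.7%), by limma-voom (7.27%) and by edgeR without V3-2 and V5-2 (12.4%). In 5-Aza against WT limma-voom also called 1 (background 23.3%).

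Other members of the same protein families were called in both directions. In IDH2-FLT3 vehicle against WT, 3 of 14 bZIP, 2 of 10 ETS and 2 of 5 interferon regulatory factors were called, where 20.5% of accessions were. In TET2-FLT3 vehicle against WT these were 4 of 14, 0 of 10 and 1 of 5 (10.1% of accessions). In AG-221 against vehicle they were 2, 0 and 0 (9.68%), and in 5-Aza against vehicle 2, 0 and 1 (1.88%). Of 14 tested bZIP factors, Fosl2 (log2 fold change 2.33 ± 0.46) and Batf3 (3.19 ± 0.92) rose and Hlf, a stem cell factor, fell (-4.75 ± 0.56, edgeR adjusted p = 3.60e-05) in IDH2-FLT3 vehicle against WT. After AG-221, Hlf rose (3.25 ± 0.52) and Fosl2 fell (-2.24 ± 0.46) relative to vehicle. Relative to WT, in TET2-FLT3 vehicle Nfil3 (2.25 ± 0.50), Batf3 (3.76 ± 0.91) and the stress-response gene Atf3 (3.89 ± 1.06) rose and Hlf fell (-2.17 ± 0.44). After 5-Aza, Batf3 and Atf3 (-5.32 ± 1.19) fell relative to vehicle. Of 10 tested ETS factors, Spib (-3.54 ± 0.88) and Spic (-2.51 ± 0.71), the closest relatives of PU.1, fell in IDH2-FLT3 vehicle against WT, and 0 of 10 were called by edgeR in TET2-FLT3 vehicle against WT (1 with an unadjusted p under 0.05, 0 by DESeq2 and 1 by limma-voom). Spib stood at 21.1 ± 3.81 CPM in WT and 1.78 ± 1.30 in IDH2-FLT3 vehicle. The group mean of Spi1 differed in the opposite direction, but only through V3-2. Spib was also lower than in WT after AG-221 (-3.76 ± 0.80) and after 5-Aza (-4.55 ± 0.84). Of 5 tested interferon regulatory factors, Irf2 (-1.01 ± 0.29) and Irf1 (-2.73 ± 0.83) fell in IDH2-FLT3 vehicle against WT, and Irf3 (-1.76 ± 0.51) fell in TET2-FLT3 vehicle against WT. Irf4, which overlaps with Irf8 in B and dendritic cells, fell after 5-Aza relative to vehicle (-2.59 ± 0.47, adjusted p = 0.00575). Irf7 was listed at 0 in every library. Without V3-2 and V5-2, 1 of 10 ETS factors was called in IDH2-FLT3 vehicle against WT (15.2% of accessions), and the calls of Irf2 and Irf1 were lost.

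Co-factors and antagonists of the myeloid program formed a list of 25, with 18 tested. In IDH2-FLT3 vehicle against WT 3 rose and 8 fell (median log2 fold change -1.75), where 10.1% of accessions were called higher and 10.4% lower, and 3 and 9 of 19 did so without V3-2 and V5-2 (15.2% in either direction). The smallest p-values were those of Id1, whose product blocks DNA binding by helix-loop-helix factors (3.74 ± 0.42), Trib2, a pseudokinase that promotes degradation of C/EBP alpha (-6.16 ± 1.02), Gata1, the erythroid factor that antagonizes PU.1 (-3.20 ± 0.58), and Klf4, a monocyte factor (3.43 ± 0.62), with edgeR adjusted p from 1.96e-05 to 9.43e-04. Trib2 was 19.3 ± 4.97 CPM in WT, 0.273 ± 0.392 in IDH2-FLT3 vehicle and 0.191 ± 0.0593 in TET2-FLT3 vehicle. With TET2-FLT3 vehicle against WT 2 rose and 5 fell (4.43% and 5.71% of accessions), with Id1 (3.37 ± 0.40) up and Gata1 (-4.37 ± 0.55), Trib2 (-6.66 ± 0.93) and Gata2 (-1.68 ± 0.30) down. After AG-221, 3 of 18 were called relative to vehicle (9.68% of accessions). Klf4 fell (-2.41 ± 0.60), and Tcf4, a factor of plasmacytoid dendritic cells (2.30 ± 0.66), and Gata2 (1.11 ± 0.32) rose. Against WT, Id1 was higher and Trib2 lower after AG-221 (3.71 ± 0.41 and -3.60 ± 0.77) and after 5-Aza (2.86 ± 0.40 and -3.37 ± 0.75). Called in all against WT were 5 of 18 after AG-221 (2.71% of accessions) and 2 of 18 after 5-Aza (1.72%). Relative to TET2-FLT3 vehicle, 2 of 18 were called after 5-Aza (1.88% of accessions). Gata1 (3.37 ± 0.53, edgeR adjusted p = 0.00243) and Gata2, a stem and mast cell factor (2.64-fold, adjusted p = 0.0162), rose. Gata1 ran from 26.7 to 60.3 CPM in WT, from 1.09 to 2.43 in TET2-FLT3 vehicle and from 9.47 to 28.5 after 5-Aza. Erythroid markers, with 5 of 7 above 0 and Hba-a1 and Hbb-b1 at 0, summed to 74.1 to 153 CPM in WT, 3.24 to 9.80 in TET2-FLT3 vehicle and 19.2 to 46.2 after 5-Aza, and their part in the Gata1 difference was not tested.

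The factors did not rise and fall as a block. Across the 19 libraries the Spearman correlation of CPM was 0.661 between Cebpd and Spi1 and 0.626 between Cebpd and Cebpe, and 0.132 between Cebpe and Spi1. Irf8 correlated with the other 3 at 0.123 to 0.209. The genes most like each factor, among 7681 with a mean of at least 5 CPM, were Fcgr3 (0.926), Hdc (0.898), Prg3 (0.895) and Epx (0.877) for Cebpe, the last 2 of which encode eosinophil granule proteins. For the Irf8 accession they were Cxcr3 (0.946), Slc46a3 (0.939), Phf11a (0.939) and H2-DMb1 (0.935), for Spi1 Cxcr4 (0.881), Rpia (0.877), Cnot3 (0.865) and Ddx19a (0.861), and for Cebpd Rhob (0.870), Cxcr4 (0.851), Agps (0.847) and Neu1 (0.846). Leaving out V3-2 and V5-2 gave 0.811 to 0.939 over 17 libraries for these 16 pairs. The libraries share group, depth and library make-up, so these correlations describe the 19 libraries and are no test.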

How the data were processed

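RNA of 19 libraries was analysed. Per the labels' protocols, the SMARTer Ultra Low Input kit was used on polyA RNA. Per the submitters' processing notes, the authors used STAR 2.4.0f1, featureCounts of Subread 1.4.5-p1 and mm9; counting options and strand use are not given in the sources used here. The deposited tables hold raw counts and FPKM per RefSeq accession; the FPKM matched the counts for 100% of accessions when recomputed to within 0.1%. Of 33862 accessions, names came from a RefSeq table for 33485 and from GENCODE for 188, and 189 unnamed held 3.47% of counts.

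Counts were tested with edgeR 4.0.16 (R 4.3.3): filterByExpr, TMM factors of 0.761 to 1.22, 5 group means, 14 residual degrees of freedom, biological coefficient of variation 42.9%, Benjamini-Hochberg adjustment over 11830 accessions. CPM used TMM-scaled totals. Alternatives used RLE factors, other filters, DESeq2 1.42.0, limma 3.58.1 (voom, and log2 of FPKM plus 1 or 0.1), the compared groups alone, accessions summed per gene, and each library left out; those on V3-2, V5-2 and GC content (20 classes) were added after the data were seen. Lists name up to 4 genes per comparison, by smallest p. For 5-Aza against vehicle, all 5 called monocyte and dendritic genes are named. Other genes and per-library values were chosen after their values were seen. Results of 2 list genes are not reported here. The members and lists were chosen with earlier results of these data known.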

Additional observations from a re-analysis of the deposited data

Results flagged for a closer look

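Of 20 pairs of a factor and a group of 4 libraries that could be checked for a single library far from the other 3, 3 stood out. The cutoff would mark about 1 in 20 groups if values were normally distributed, which was not tested for these CPM. A group with 0 counts in all but 1 library is always marked, as Gfi1 is below. The share expected by chance is therefore not known here. Cebpe stood at 33.0 CPM in the library V1 of TET2-FLT3 vehicle, and its gap to the next library took 0.85 of the range of the group. The Irf8 accession stood at 7.23 CPM in AG13 of the AG-221 group, with a gap of 0.947 of the range. Gfi1 stood at 0.152 CPM in AZ16 of the 5-Aza group, which is 2 counts where the other 3 libraries had 0. The accessions of Gfi1 and Irf8 that the comparisons did not use also held counts above those of WT. NM_001267621 of Gfi1 had 20 counts in V3-2, where WT libraries had at most 3, and NM_008320 of Irf8 had 10 counts in V3-2, where WT libraries had at most 1. The same Irf8 accession had 7 counts in V5-2 and 0 or 1 in each of the other 17 libraries.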

How the results depend on the processing

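No paired analysis was possible because the columns of the leukemic groups carry no replicate number of the labels. In IDH2-FLT3 vehicle against WT, 3 factors were called. With limma-voom 2 were called, Cebpe and Irf8, and the calls of Spi1 and Cebpd were lost. Summing V3 with V3-2 and V5 with V5-2 also gave 2. The fits of limma on log2 FPKM plus 1 or plus 0.1 and the fit without V3-2 and V5-2 each called 1 (Cebpe). Leaving out a library gave 1 to 4, 4 being without V9, where Gfi1 passed the filter and was called. In TET2-FLT3 vehicle against WT the 0 called became 1 (Spi1) with no filter, with DESeq2 and with V3 and V5 summed with their V3-2 and V5-2, and 0 to 1 when a library was left out. For AG-221 against vehicle, the 1 called became 2 with no filter and with DESeq2. It became 0 with limma-voom, either FPKM setting, the compared groups only and without V3-2 and V5-2. The fit of the compared groups only called 0 of all accessions, against 1145 in the main fit, so its 0 gives no information on the factors. The fit without V3-2 and V5-2 called 265 accessions. Leaving out a library gave 0 to 4, 4 being without V9, again with Gfi1. For 5-Aza against vehicle, DESeq2 and limma-voom called 1 (Irf8) in place of 0. For 5-Aza against WT, the compared groups only gave 1 (Cebpe) in place of 0. Between the vehicle groups, the 1 called (Cebpe) became 0 with limma-voom, the compared groups only, without V3-2 and V5-2 and with the pairs summed, and 0 to 2 when a library was left out. The cause of these changes was not tested. RLE factors, the stricter filter, summed accessions and GC offsets kept each count.

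Of 643 values of single members under alternatives, 566 kept direction and side of the threshold, 14 gained a call, 32 lost it and 31 changed sign, 0 of these for a called value. Sign changes under limma-voom were Cebpd in TET2-FLT3 vehicle against WT (-0.092), Irf8 in AG-221 against vehicle (-2.15) and Spi1 between the vehicle groups (-0.096). With FPKM plus 1 and plus 0.1 they were Irf8 after AG-221 (-0.043 and -0.72) and between the vehicle groups (-0.005 and -0.004), and Spi1 in 5-Aza against WT (-0.046 and -0.048). Without V3-2 and V5-2 they were Irf8 after AG-221 (-0.15), and between the vehicle groups Cebpd (-0.20) and Spi1 (-0.54), and in the difference of drug responses Cebpd (0.86) and Spi1 (0.28). With GC offsets they were Spi1 in AG-221 against WT (0.01) and Irf8 between the vehicle groups (-0.075). With a library left out, values that crossed 0 ranged from -1.28 to 0.023 (Cebpe, TET2-FLT3 vehicle against WT), from -2.68 to 0.67 (Irf8, AG-221 against vehicle), from -0.37 to 0.11 (Spi1, AG-221 against WT), from -0.48 to 2.87 (Irf8, AG-221 against WT), from -0.38 to 0.032 (Cebpd, 5-Aza against WT), and between the vehicle groups from -1.59 to 1.82 (Spi1), from -0.29 to 0.41 (Irf8) and from -0.045 to 2.24 (Cebpd). In the difference of drug responses they ranged from -1.56 to 0.70 (Cebpd) and from -2.08 to 1.32 (Spi1).

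Irf8 and Gfi1 rest on few counts, and no level of Cebpa or Cebpb was read.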
